A study of Mus musculus with 9 samples.

Results

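The ligands and receptors of the tumour necrosis factor (TNF) superfamily were compared between Sca-1+ and Sca-1- CD31+ cells of mouse BM. The members were the rows of the count table whose gene name begins with Tnfsf or Tnfrsf and a digit, together with Cd27, Cd40, Cd40lg, Cd70, Fas, Fasl, Ltbr, Lta, Ltb, Ngfr, Eda2r and Edar. Tnfrsf1a and Tnfrsf1b, the receptors of TNF itself, were left out. The rule found 42 of the 46078 genes in the table, 16 ligands, 25 receptors and the non-coding RNA Tnfsf13os. Of the members, 26 had at least 10 counts in 4 libraries, and 27 passed the filter on low counts and were tested. The other 15 are given by their counts.

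The TNF superfamily is a group of trimeric ligands, most of them held in the cell membrane until cleaved, that signal through the receptors of the TNF receptor superfamily. Receptors with a death domain in their cytoplasmic tail can recruit FADD and caspase-8, whereas the others bind TRAF adaptor proteins and turn on the canonical or the non-canonical NF-kB pathway. Soluble and decoy receptors bind ligand without passing on a signal. On endothelium these proteins are known for costimulation of leukocytes, for endothelial activation and death, and in bone for the control of osteoclasts.

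RNA was sequenced from BM cells of normal wild type B6 mice that had been sorted as CD45-Ter119-CD31+ and then by Sca-1, with 4 libraries of Sca-1+ and 5 of Sca-1- cells. All cells carry the label wild type, and no treatment or age was given. The titles of Sca-1+ library 13 and of Sca-1- libraries 10, 14 and 22 also carry the mark CD452 (without its letters in library 10), those of libraries 15, 19, 8 and 16 the mark wt, and that of library 7 neither, and the labels do not explain these marks. Libraries are named by the number that ends their label, 7, 13, 15 and 19 for Sca-1+ and 8, 10, 14, 16 and 22 for Sca-1-, and values by library follow that order. Total counts were 23058385 to 24657204 per Sca-1+ library and 21581653 to 25959818 per Sca-1- library, so that 3 counts, taken as the floor of a library, were worth 0.102 to 0.116 and 0.0996 to 0.209 CPM (counts relative to the library size, scaled by TMM, the trimmed mean of M-values). The labels do not place every library in a mouse of its own, and libraries 15 and 16 share a mouse number, so that p-values measure the spread between these samples, which may be technical. The running numbers that open the labels did not overlap between the fractions, and a batch that follows them cannot be told apart from the fraction.

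The sort gene Ly6a (Sca-1) stood at 873 to 1302 CPM in Sca-1+ and at 0.240 to 1.49 CPM in Sca-1- libraries. Both fractions carry the label endothelial cells. The summed level of 22 general endothelial genes was 16083 to 20063 CPM in Sca-1+ and 1345 to 3920 CPM in Sca-1- libraries, and 20 of the 22 were higher in Sca-1+. A list of 16 megakaryocyte and platelet genes, all 16 of them lower in Sca-1+, summed to 41.8 to 96.2 CPM in Sca-1+ and to 26935 to 117937 CPM in Sca-1-, where Itga2b reached 333444 counts. Of 15 general leukocyte genes 13 were lower in Sca-1+, with sums of 256 to 409 against 2293 to 4489 CPM. The part of these other cells in the results below was not tested, and in sorted bulk samples fewer cells of a type and less RNA per cell cannot be told apart.

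**Figure D1:**
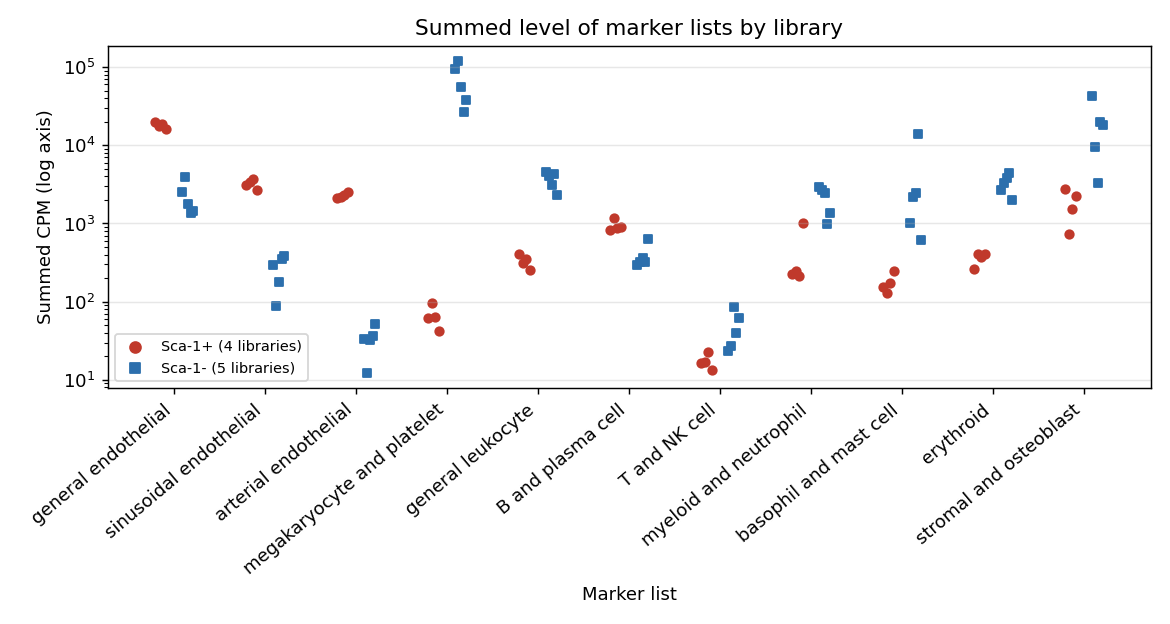
Summed CPM of each list of marker genes on a log axis, 1 point per library, circles for the 4 Sca-1+ and squares for the 5 Sca-1- libraries. The general endothelial sums lie at 16083 to 20063 CPM in Sca-1+ and 1345 to 3920 CPM in Sca-1-, and the megakaryocyte and platelet sums at 41.8 to 96.2 and 26935 to 117937 CPM.

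Sequence is shown for 4 members on which the results turn: Tnfsf10, a ligand that was higher in Sca-1+, Tnfsf14, the ligand that was lower, and Ltbr and Tnfrsf12a, the called receptors highest per exon length in Sca-1+. Each is the RefSeq window from 250 bases before to 50 bases after the annotated start (build GRCm38.p6), read 5′ to 3′ on the strand of the gene. Capitals mark the ETS core CGGAAG or its reverse complement; ETS factors are a family that includes endothelial regulators such as Erg.
Tnfsf10, chr3:27316827-27317126, + strand: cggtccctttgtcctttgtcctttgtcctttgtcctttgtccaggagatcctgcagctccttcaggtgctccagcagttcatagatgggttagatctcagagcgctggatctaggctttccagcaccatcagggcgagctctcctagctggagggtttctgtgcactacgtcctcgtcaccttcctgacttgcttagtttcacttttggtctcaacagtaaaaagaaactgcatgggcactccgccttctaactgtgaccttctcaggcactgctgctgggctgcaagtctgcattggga
Tnfsf14, chr17:57194132-57194431, - strand: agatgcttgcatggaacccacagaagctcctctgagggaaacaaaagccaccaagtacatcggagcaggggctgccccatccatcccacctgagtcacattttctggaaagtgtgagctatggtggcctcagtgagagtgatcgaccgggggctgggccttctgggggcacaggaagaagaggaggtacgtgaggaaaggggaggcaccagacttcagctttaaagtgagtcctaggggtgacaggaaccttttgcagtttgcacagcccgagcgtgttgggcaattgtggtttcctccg
Ltbr, chr6:125313836-125314135, - strand: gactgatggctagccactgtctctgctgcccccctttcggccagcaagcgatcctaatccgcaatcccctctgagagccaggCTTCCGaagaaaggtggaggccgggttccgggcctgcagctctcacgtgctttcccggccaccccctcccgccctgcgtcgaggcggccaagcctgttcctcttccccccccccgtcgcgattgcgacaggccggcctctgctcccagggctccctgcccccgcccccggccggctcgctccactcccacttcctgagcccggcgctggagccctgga
Tnfrsf12a, chr17:23677400-23677699, - strand: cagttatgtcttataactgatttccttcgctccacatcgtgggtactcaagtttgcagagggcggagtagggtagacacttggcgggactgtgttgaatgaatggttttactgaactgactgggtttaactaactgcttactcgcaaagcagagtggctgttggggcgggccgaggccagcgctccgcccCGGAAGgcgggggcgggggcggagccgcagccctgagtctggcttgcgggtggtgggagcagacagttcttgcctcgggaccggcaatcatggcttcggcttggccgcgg
The core began 168 bases before the start of Ltbr and 60 bases before that of Tnfrsf12a. Windows were found for 31 of the 42 members, among them 8 called higher and 2 called lower. On either strand the ETS core lay in 5 of these 31 genes, including 3 called higher and 0 called lower, against 18.8% of all 27025 genes with a window. The motif GATAA lay in 3 of the 31 and in none of the 10 called genes against 28.4% of all genes, and the NF-kB-like motif GGNNTTTCC in 5 of the 31, among them Tnfrsf25 and Tnfrsf13b, against 6.62%. Such a match describes the letters of the window only.

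Under TMM scaling most differences across the family ran toward Sca-1+, which relative to general endothelial genes was not so. Of the 27 tested members 14 were higher in Sca-1+ at an adjusted p under 0.05 (edgeR, adjusted across all genes tested), where 23.3% of all 15937 tested genes were, and 3 were lower, where 21.4% of all were. The median log2 fold change of the 27 was 1.89, beside 0.07 over all genes tested. In 13 members every Sca-1+ library lay above every Sca-1- library (24.8% of all genes), in 2 the reverse held (18.8% of all), and 12 overlapped. These directions hold relative to TMM scaling, which sets the bulk of genes equal. When the libraries were instead scaled to the 22 general endothelial genes, all genes moved by a median of -3.27 on the log2 scale. Of the members 0 were then called higher and 12 lower, where 1.91% of all genes tested were higher and 80.6% were lower. The endothelial scaling rests on the summed counts of those 22 genes. Relative to that sum the 14 members called higher had log2 fold changes from -1.28 (Eda2r) to 1.37 (Tnfsf11). Under TMM scaling the median log2 fold change of the 22 endothelial genes was 4.86. That is above the value of every tested member, the highest being 4.69 (Tnfsf11).

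**Figure D2:**
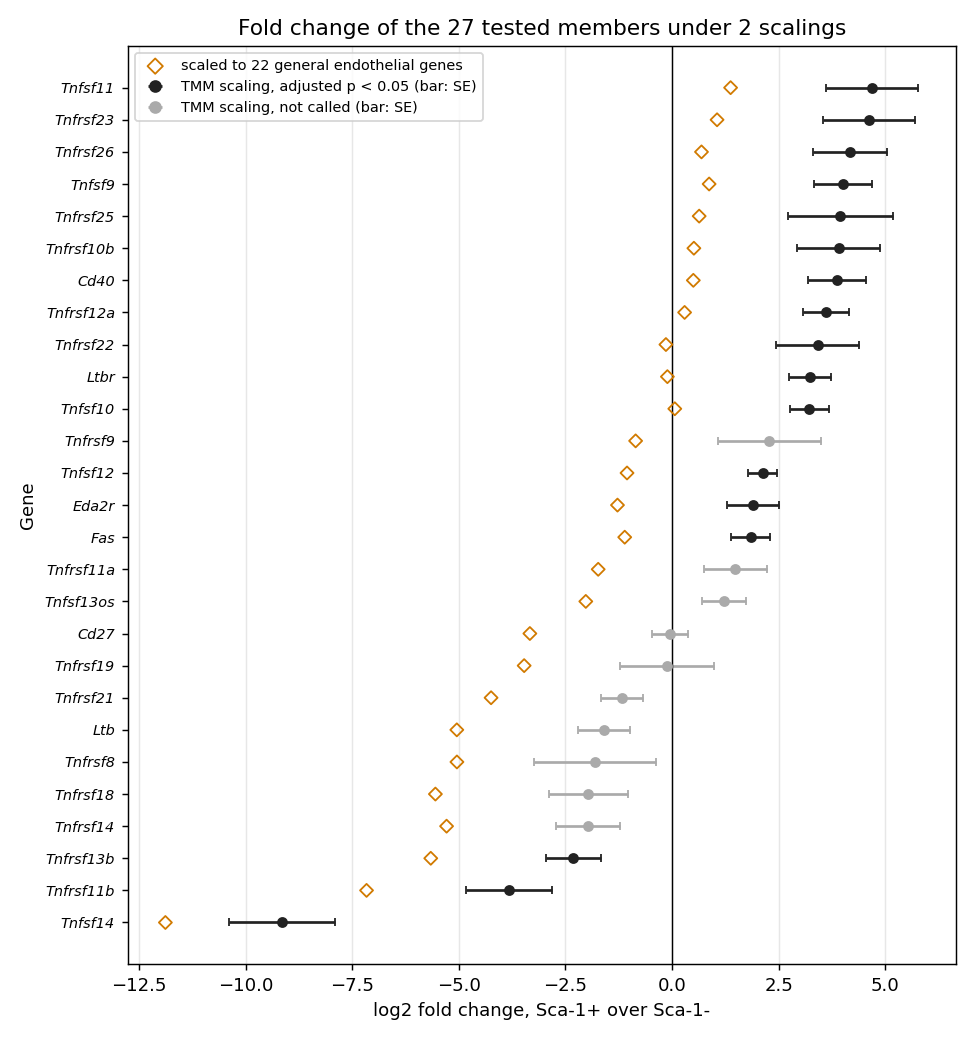
Log2 fold change of Sca-1+ over Sca-1- for each of the 27 tested members, with filled points for TMM scaling (bars are the SE, black where the adjusted p was under 0.05) and open diamonds for scaling to 22 general endothelial genes. Under TMM scaling 14 members lie to the right and 3 to the left as called genes. Under endothelial scaling none is called higher and 12 are called lower, where 1.91% and 80.6% of all genes tested are.

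Among the ligands, 4 of 6 tested were higher in Sca-1+ and 1 was lower under TMM scaling, where 23.3% and 21.4% of all genes tested were. None of the 6 was higher relative to endothelial genes, where 1.91% of all genes tested were. Positions of genes are those of GENCODE M21 on GRCm38. Tnfsf10 (TRAIL, ENSMUSG00000039304; chr3:27317028-27342427, + strand), which can trigger apoptosis through death receptors, stood at 33.98, 33.2, 39.7 and 37.2 CPM in the Sca-1+ libraries and 3.12, 6.49, 1.06, 2.72 and 5.95 CPM in the Sca-1- libraries. Its Sca-1+ libraries were tightly grouped and all above the Sca-1- libraries (log2 fold change 3.22, SE 0.46, adjusted p = 0.000378), although relative to endothelial genes its log2 fold change was 0.06. Tnfsf12 (TWEAK, chr11:69686250-69695849, - strand), a ligand of Tnfrsf12a, was at 12.2, 17.5, 8.12 and 20.8 CPM in the Sca-1+ libraries and 3.90, 3.14, 3.99, 3.29 and 2.40 CPM in the Sca-1- libraries. All Sca-1+ libraries again lay above all Sca-1- libraries (log2 fold change 2.13, SE 0.34, adjusted p = 0.000749), a direction that turned to -1.06 under endothelial scaling. Exons of Tnfsfm13, a read-through gene of the same strand with 14 to 44 counts per Sca-1+ and 1 to 12 per Sca-1- library, cover 48.3% of the Tnfsf12 exons, so the split of reads between them is uncertain.

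Tnfsf9 (4-1BB ligand, chr17:57105325-57107757, + strand), a costimulatory ligand for T cells, had 11.4, 29.6, 52.5 and 148 CPM in the Sca-1+ libraries and 1.92, 5.10, 3.78, 2.36 and 5.58 CPM in the Sca-1- libraries. The fractions did not overlap (log2 fold change 4.01, SE 0.69, adjusted p = 0.00103), but the Sca-1+ libraries spread widely, and without library 19 the log2 fold change was 3.06. The opposite-strand gene Gm11110 covers 14.9% of its exons and had at most 56 counts in a library. Tnfrsf9 (4-1BB), the receptor of Tnfsf9, was at 2.28, 0.306, 4.73 and 2.25 CPM in the Sca-1+ libraries and 0.721, 0.698, 0, 0 and 1.06 CPM in the Sca-1- libraries. The libraries of the fractions overlapped and the difference was not called (log2 fold change 2.28, SE 1.21, adjusted p = 0.151). Tnfsf11 (RANKL), the cytokine that drives osteoclast formation, was low throughout, at 4.94, 0.851, 0.794 and 2.17 CPM in the Sca-1+ libraries and 0, 0.0698, 0, 0.0332 and 0.285 CPM in the Sca-1- libraries. Every Sca-1+ library exceeded every Sca-1- library (log2 fold change 4.69, SE 1.08, adjusted p = 0.00540), but 4 of the 5 Sca-1- libraries were at or under the floor, and the log2 fold change was 6.23 without Sca-1- library 22 and 3.91 without Sca-1+ library 7.

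Tnfsf14 (LIGHT, ENSMUSG00000005824; chr17:57189492-57194177, - strand), a ligand of Ltbr and Tnfrsf14, was the ligand that was lower in Sca-1+. It had 0 counts in Sca-1+ libraries 7, 13 and 15 and 11 counts, or 0.426 CPM, in library 19. In the Sca-1- libraries it reached 50.2, 154, 38.7, 25.1 and 30.3 CPM (log2 fold change -9.15, SE 1.23, adjusted p = 0.000270). The fractions were far apart, with means of 0.106 ± 0.213 CPM (SD, n = 4) in Sca-1+ and 59.7 ± 53.6 CPM (SD, n = 5) in Sca-1-. The fitted fold change depends on library 19, since it was -13.52 without that library, and was -8.49 without Sca-1- library 10. Library 10, the highest for Tnfsf14, was also the highest for the summed megakaryocyte and platelet genes at 117937 CPM, and library 16, the lowest of the Sca-1- libraries for both, stood at 26935 CPM. The part of those cells in this difference was not tested.

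Ltb (lymphotoxin beta), the membrane anchor of the lymphotoxin ligand of Ltbr, was at 2.79, 3.88, 2.83 and 1.43 CPM in the Sca-1+ libraries and 5.05, 4.54, 8.65, 20.2 and 2.85 CPM in the Sca-1- libraries. The fractions overlapped and it was not called (log2 fold change -1.59, SE 0.60, adjusted p = 0.0533). It passed the threshold when Sca-1- library 8, 10 or 22 was left out (adjusted p = 0.0428, 0.0426 and 0.0285), whereas without library 16 its log2 fold change was -0.95 (adjusted p = 0.137). The highest value came from library 16, which also had the highest sum of basophil and mast cell genes, 13845 CPM against 613 to 2438 CPM in the other Sca-1- libraries. Cd3e, Cd3d and Cd3g, which define T cells, had 0 counts in every Sca-1+ library and at most 47 counts in any Sca-1- library. Of the 13 T and NK cell genes 4 were tested, with 1 called higher and 2 called lower in Sca-1+, and the list summed to 13.5 to 22.5 CPM in Sca-1+ and to 23.1 to 84.5 CPM in Sca-1-. The part of these cells was not tested.

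The other 10 ligands were scarcely detected. Cd40lg and Cd70, costimulatory ligands found on activated lymphocytes, had 0 counts in all 9 libraries, which in each library allows a level of up to 0.0996 to 0.209 CPM by counting error alone. Tnfsf8 had at most 11 counts in a library, Fasl and Tnfsf18 12, Lta 13, Tnfsf13b 14, Tnfsf4 18, Tnfsf13 19 and Tnfsf15 21. Tnfsf13 (APRIL) shares 60.05% of its exons with Tnfsfm13 and 13.5% with the opposite-strand RNA Tnfsf13os, so its counts are uncertain. Tnfsf13os itself was at 2.96 ± 0.844 CPM (SD, n = 4) in Sca-1+ and 1.26 ± 0.829 CPM (SD, n = 5) in Sca-1- and was not called (log2 fold change 1.22, SE 0.51, adjusted p = 0.0755). Without Sca-1- library 14 it passed the threshold (adjusted p = 0.0123).

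**Figure D3:**
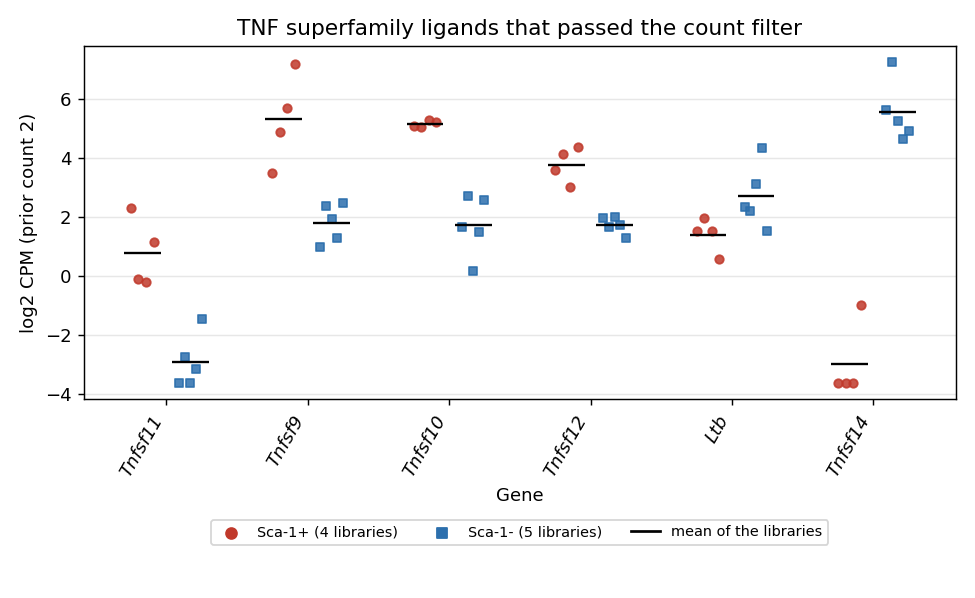
Log2 CPM with a prior count of 2 for the 6 ligands that passed the count filter, 1 point per library, circles for the 4 Sca-1+ and squares for the 5 Sca-1- libraries, with a bar at the mean. Tnfsf11, Tnfsf9, Tnfsf10 and Tnfsf12 lie higher in Sca-1+ under TMM scaling, where Tnfsf12 turns under endothelial scaling, Ltb overlaps, and Tnfsf14 lies at the floor in 3 of the 4 Sca-1+ libraries.

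Of the 6 receptors with a death domain, 3 of 4 tested were higher in Sca-1+ under TMM scaling, where 23.3% of all genes tested were. None of the 4 was higher relative to endothelial genes, where 1.91% of all genes tested were. Fas (chr19:34290666-34327772, + strand), the receptor of Fas ligand, was at 32.9, 58.03, 43.6 and 85.3 CPM in the Sca-1+ libraries and 20.7, 25.3, 16.8, 5.91 and 8.02 CPM in the Sca-1- libraries. All Sca-1+ libraries lay above all Sca-1- libraries (log2 fold change 1.84, SE 0.45, adjusted p = 0.00748), whereas relative to the endothelial genes it was lower in Sca-1+, with a log2 fold change of -1.11 (adjusted p = 0.0329). Tnfrsf10b (the TRAIL death receptor, chr14:69767472-69784411, + strand) had 8.83, 7.59, 11.8 and 13.5 CPM in the Sca-1+ libraries and 0.0601, 0, 1.99, 0.232 and 1.10 CPM in the Sca-1- libraries. Every Sca-1+ library exceeded every Sca-1- library (log2 fold change 3.91, SE 0.98, adjusted p = 0.00865), and the log2 fold change was 4.74 without Sca-1- library 14, the highest of that fraction.

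Tnfrsf25 (DR3), the receptor of Tnfsf15, was low, at 3.83 ± 2.11 CPM (SD, n = 4) in Sca-1+ and 0.243 ± 0.344 CPM (SD, n = 5) in Sca-1-, where 3 libraries had 0 counts (log2 fold change 3.95, SE 1.23, adjusted p = 0.0245). The call was lost without Sca-1+ library 13 or 15 (adjusted p = 0.0580 and 0.0658) and with the title mark as a term (0.0581), and the log2 fold change was 5.05 without Sca-1- library 22. Tnfrsf21 (DR6) was the exception of the group, at 12.2, 8.75, 14.7 and 46.9 CPM in the Sca-1+ libraries and 46.9, 64.1, 46.5, 25.1 and 50.05 CPM in the Sca-1- libraries. The Sca-1+ library 19 lay within the range of the Sca-1- libraries and the other 3 below it, and the difference was not called (log2 fold change -1.17, SE 0.49, adjusted p = 0.0758). Without library 19 the log2 fold change was -1.96 (adjusted p = 0.00237). Tnfrsf21 was also called lower by DESeq2 (adjusted p = 0.0409), limma voom (0.0219) and under endothelial scaling (6.17e-05). The 6 libraries of consecutive label numbers called it with and without a replicate block (0.0363 and 0.00994). The other scalings, the title mark as a term and leaving out any other library did not call it (0.0512 to 0.2435). Ngfr, the low-affinity neurotrophin receptor, had at most 22 counts, and Edar, the ectodysplasin receptor, at most 52, both in a Sca-1+ library, and neither was tested.

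Of the 15 receptors without a death domain 12 were tested, and 7 of these were not called. Under TMM scaling 4 were higher and 1 was lower, beside shares of 23.3% and 21.4% in the whole tested set. Relative to endothelial genes none of the 12 was higher, beside a share of 1.91% in that set. Ltbr (lymphotoxin beta receptor, ENSMUSG00000030339; chr6:125306571-125313885, - strand), which activates the non-canonical NF-kB pathway, had 103, 95.3, 104 and 81.5 CPM in the Sca-1+ libraries and 14.2, 5.86, 2.21, 10.96 and 17.6 CPM in the Sca-1- libraries. The Sca-1+ libraries were close to each other and far above the Sca-1- libraries (log2 fold change 3.24, SE 0.50, adjusted p = 0.000570), while under endothelial scaling the log2 fold change was -0.11. Tnfrsf12a (Fn14, ENSMUSG00000023905; chr17:23675445-23677468, - strand), the receptor of TWEAK, was at 53.1, 55.4, 76.2 and 95.9 CPM in the Sca-1+ libraries and 10.7, 1.33, 2.84, 7.94 and 5.95 CPM in the Sca-1- libraries. There was no overlap (log2 fold change 3.61, SE 0.53, adjusted p = 0.000451), and relative to endothelial genes the log2 fold change was 0.29. Cd40 (chr2:165055627-165072948, + strand), a costimulatory receptor also carried by endothelium, was at 65.1, 52.1, 49.6 and 31.8 CPM in the Sca-1+ libraries and 6.07, 0.698, 0.721, 2.59 and 6.84 CPM in the Sca-1- libraries. The lowest Sca-1+ library stood well above the highest Sca-1- library (log2 fold change 3.87, SE 0.68, adjusted p = 0.00121).

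Eda2r, the X-linked receptor of ectodysplasin A2, was at 2.28, 5.55, 3.69 and 16.4 CPM in the Sca-1+ libraries and 1.92, 1.19, 3.44, 1.63 and 1.18 CPM in the Sca-1- libraries. The fractions overlapped, library 19 stood above the other Sca-1+ libraries, and the call was weak (log2 fold change 1.89, SE 0.61, adjusted p = 0.0287). It was lost without library 19 (log2 fold change 1.04, adjusted p = 0.148) and without any of Sca-1- libraries 8, 10, 16 and 22 (adjusted p = 0.0532 to 0.0653), and limma voom did not call it (adjusted p = 0.0701). Tnfrsf13b (TACI), the B cell receptor of APRIL and BAFF, was the receptor of this group that was lower in Sca-1+, at 1.02, 1.09, 0.725 and 2.25 CPM in the Sca-1+ libraries and 4.39, 4.61, 2.12, 4.98 and 15.6 CPM in the Sca-1- libraries. Sca-1+ library 19 slightly exceeded Sca-1- library 14, and library 22 was the highest (log2 fold change -2.32, SE 0.64, adjusted p = 0.0141). Without library 22 the log2 fold change was -1.67, and with the mark in the titles as a term in 8 libraries the call was lost (adjusted p = 0.0892). Cd79a, a part of the B cell receptor complex, had 11 to 13 counts in the Sca-1+ libraries and 20 to 1384 in the Sca-1- libraries, highest in library 22. The list of 13 B and plasma cell genes moved in both directions, with 3 higher and 4 lower of 9 tested, and summed to 827 to 1181 CPM in Sca-1+ and 298 to 625 CPM in Sca-1-. The part of B cells in this difference was not tested.

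The remaining tested receptors of this group did not pass the threshold. Tnfrsf14 (HVEM), a receptor of LIGHT, was at 0.239, 0.170, 0.0345 and 0.310 CPM in the Sca-1+ libraries and 0.781, 0.209, 1.15, 1.23 and 0.366 CPM in the Sca-1- libraries (log2 fold change -1.97, SE 0.75, adjusted p = 0.0529), low and overlapping, and passed without Sca-1- library 10 (adjusted p = 0.0285). Tnfrsf18 (GITR), with 15.5 CPM in Sca-1- library 16 and at most 3.56 CPM elsewhere, had a log2 fold change of -1.96 (adjusted p = 0.108), or -0.69 without library 16, and 27.2% of its exons lie under the opposite-strand gene Gm16008. Tnfrsf11a (RANK), the receptor of RANKL, had a log2 fold change of 1.48 (adjusted p = 0.130), which passed without Sca-1- library 14 (adjusted p = 0.0462). Tnfrsf19 had 6.43 ± 5.68 CPM (SD, n = 4) in Sca-1+ and 7.003 ± 5.56 CPM (SD, n = 5) in Sca-1- and 0 counts in Sca-1+ library 13. Its log2 fold change of -0.12 and that of Cd27, -0.06, were within their SE and changed sign with the scaling. Tnfrsf8 (CD30) stood under 2 CPM in every library. Among the members not tested, Tnfrsf17 (BCMA) had at most 8 counts and Tnfrsf4 (OX40) 20, whereas Tnfrsf13c, the BAFF receptor of B cells, reached 204 counts in Sca-1- library 22, the library highest for Cd79a, and at most 4 in a Sca-1+ library.

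All 4 soluble, decoy or orphan receptors were tested and called, 3 higher and 1 lower in Sca-1+, where 23.3% and 21.4% of all genes tested were. None of the 4 was higher relative to endothelial genes, where 1.91% of all genes tested were. The 3 higher are neighbours on chromosome 7 (Tnfrsf26, chr7:143607659-143628722, - strand; Tnfrsf22, chr7:143634806-143649661, - strand; Tnfrsf23, chr7:143665809-143685872, - strand), and Tnfrsf22 and Tnfrsf23 are decoy receptors of TRAIL. Tnfrsf26 was at 58.4, 49.7, 52.1 and 25.8 CPM in the Sca-1+ libraries and 2.58, 1.40, 0.0424, 7.27 and 1.51 CPM in the Sca-1- libraries. All Sca-1+ libraries lay above all Sca-1- libraries (log2 fold change 4.17, SE 0.87, adjusted p = 0.00311), and the log2 fold change was 5.08 without Sca-1- library 16. Tnfrsf22 was at 20.9, 13.7, 16.2 and 20.6 CPM in the Sca-1+ libraries and 0, 0.0698, 2.04, 2.76 and 3.34 CPM in the Sca-1- libraries. Its fractions did not overlap (log2 fold change 3.41, SE 0.98, adjusted p = 0.0165), its sign turned under endothelial scaling (-0.14), and the call was lost with the title mark as a term (adjusted p = 0.0656). Tnfrsf23 was at 7.36, 3.64, 11.2 and 4.07 CPM in the Sca-1+ libraries and 0, 0.0698, 0, 0.797 and 0.366 CPM in the Sca-1- libraries, with no overlap (log2 fold change 4.62, SE 1.07, adjusted p = 0.00563), and the log2 fold change was 5.74 without Sca-1- library 16. Transcripts of Tnfrsf22 and Tnfrsf23 share 719 stretches of 50 bases, or 17.3% of those of Tnfrsf22 and 18.01% of those of Tnfrsf23, so reads could be split between these 2 genes, and their separate levels are uncertain. Neither shares such a stretch with Tnfrsf26 or Tnfrsf10b.

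Tnfrsf11b (osteoprotegerin, chr15:54250619-54278484, - strand), the soluble decoy of RANKL that also binds TRAIL, ran the other way, at 1.84, 0, 1.93 and 1.32 CPM in the Sca-1+ libraries and 30.6, 10.5, 5.90, 34.9 and 8.43 CPM in the Sca-1- libraries. Every Sca-1- library was above every Sca-1+ library (log2 fold change -3.82, SE 1.02, adjusted p = 0.0116), and Sca-1+ library 13 had 0 counts. Libraries 16 and 8, the highest for Tnfrsf11b, were also the highest for the 14 stromal and osteoblast genes, at 19615 and 43078 CPM against 3327 to 18191 CPM in the other Sca-1- libraries and 733 to 2760 CPM in Sca-1+. Library 22 followed at 18191 CPM but had only 8.43 CPM of Tnfrsf11b. Of those 14 genes 2 were higher, 3 lower and 9 not called in Sca-1+. The part of stromal cells in the difference was not tested.

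**Figure D4:**
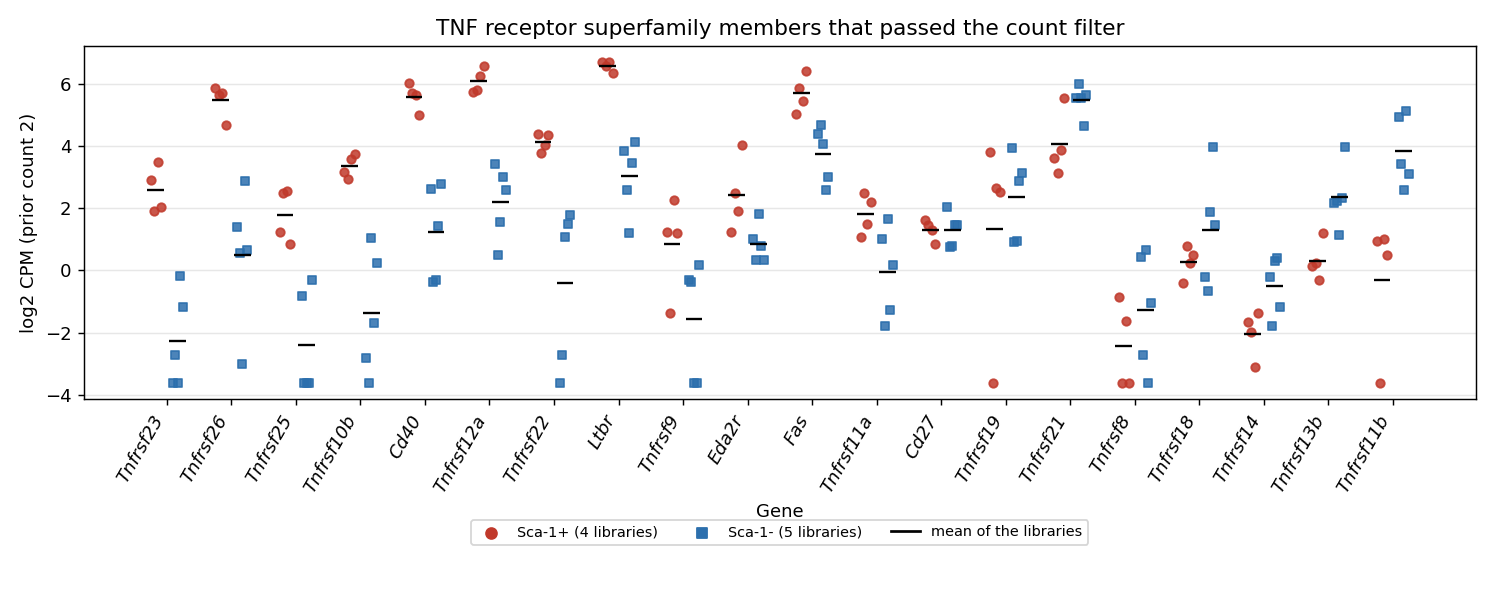
Log2 CPM with a prior count of 2 for the 20 receptors that passed the count filter, 1 point per library, circles for the 4 Sca-1+ and squares for the 5 Sca-1- libraries, with a bar at the mean and genes ordered by log2 fold change under TMM scaling. 9 receptors have every Sca-1+ library above every Sca-1- library, where 24.8% of all genes tested do. Tnfrsf11b has the reverse, where 18.8% of all genes tested do, and 10 overlap. Relative to endothelial genes none is called higher, where 1.91% of all genes tested are.

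Levels of different genes were compared per kb of exon. In Sca-1+ libraries the order began with Tnfsf9 (46.7 ± 46.99 CPM per kb), Ltbr (40.8 ± 4.43), Tnfrsf12a (36.3 ± 10.4) and Fas (26.7 ± 10.996, SD, n = 4). The ranges of these 4 over the libraries overlapped, Tnfsf9 ranging from 8.82 to 114 CPM per kb. Within every Sca-1+ library, however, Fas lay below Tnfrsf12a. Cd40 (14.6 ± 4.03) and Tnfrsf26 (14.5 ± 4.44) followed, ahead of Tnfsf12 (9.67 ± 3.70) and Tnfsf10 (6.84 ± 0.568 CPM per kb). The order in Sca-1- libraries was another. Tnfsf14 led at 32.3 ± 29.04 CPM per kb (SD, n = 5), followed by Tnfrsf21 (11.3 ± 3.40), Fas (7.44 ± 4.01), Tnfrsf11b (6.41 ± 4.82), Ltb (5.44 ± 4.61) and Ltbr (4.32 ± 2.64 CPM per kb). The range of Tnfsf14 over the libraries, from 13.6 to 83.5 CPM per kb, met that of Tnfrsf21, from 6.12 to 15.6. Within every Sca-1- library Tnfsf14 lay above Tnfrsf21.

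**Figure D5:**
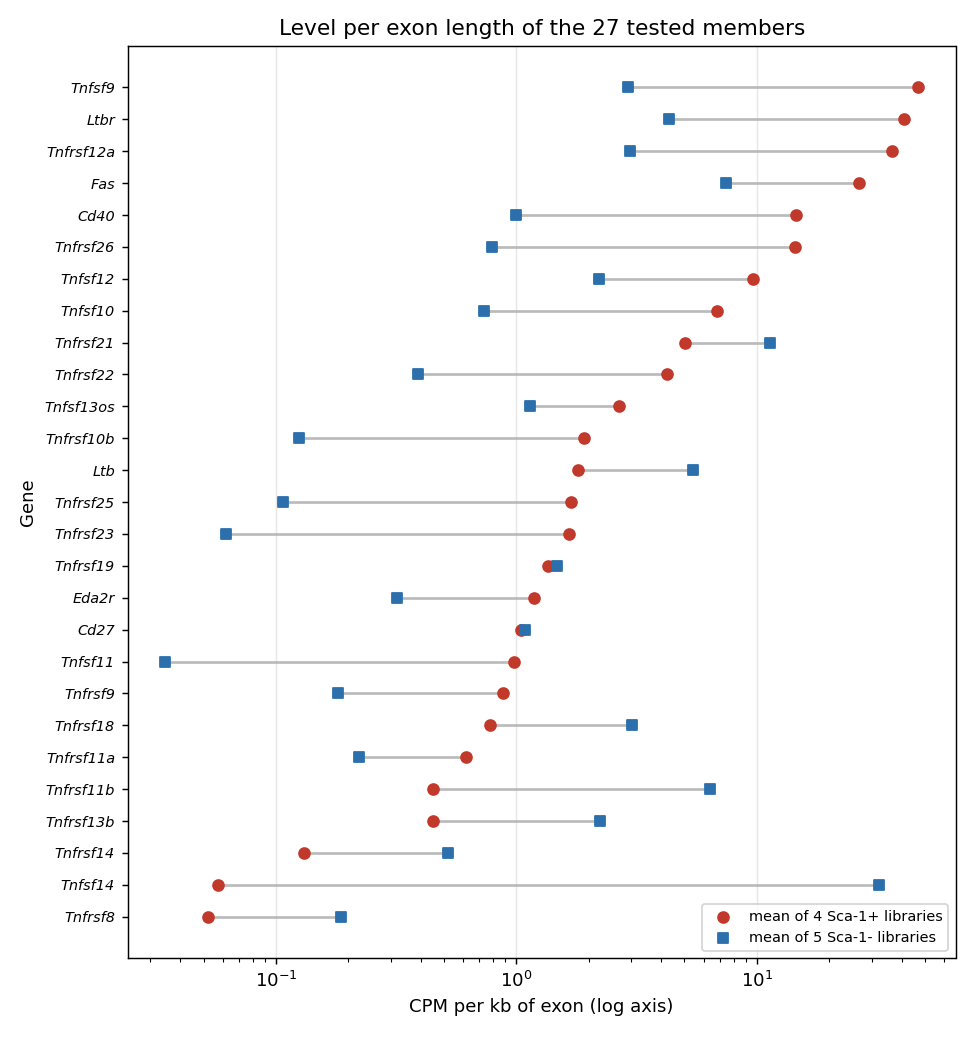
Mean CPM per kb of exon on a log axis for the 27 tested members, circles for the 4 Sca-1+ and squares for the 5 Sca-1- libraries, joined by a line for each gene and ordered by the Sca-1+ mean. Tnfsf9, Ltbr, Tnfrsf12a and Fas stand highest in Sca-1+, and Tnfsf14 in Sca-1-.

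Of 24 known pairs of ligand and receptor, both partners had a mean of at least 5 CPM in 4 pairs in Sca-1+ and in 2 pairs in Sca-1-. In Sca-1+ these were TRAIL (Tnfsf10) with Tnfrsf10b, Tnfrsf22 and Tnfrsf23, and TWEAK (Tnfsf12) with Tnfrsf12a. In Sca-1- they were Tnfsf14 and Ltb, each with Ltbr. The Ltb mean was raised by library 16 (20.2 CPM), while libraries 10 and 22 stood at 4.54 and 2.85 CPM. Ltbr was at 2.21 CPM in Sca-1- library 14, and the lymphotoxin gene Lta had at most 13 counts in a library. The ligand and the receptor of a pair could also stand in different fractions, with Tnfsf14 at 59.7 ± 53.6 CPM in Sca-1- (SD, n = 5) and Ltbr at 96.02 ± 10.4 CPM in Sca-1+ (SD, n = 4). Cd40 and Fas were measured in Sca-1+ at 49.6 ± 13.7 and 54.96 ± 22.7 CPM (SD, n = 4), while their ligand genes had 0 counts (Cd40lg) and at most 12 counts in any library (Fasl).

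Downstream of the receptors 49 genes were counted in 4 lists, and all were tested. Of these 19 were higher and 12 lower in Sca-1+, where 23.3% and 21.4% of all genes tested were. The median log2 fold change of the 49 was 0.36, beside 0.07 over all genes. Relative to endothelial genes 0 were higher and 41 lower, where 1.91% and 80.6% of all genes tested were. All 3 genes listed for the non-canonical NF-kB pathway were higher under TMM scaling, with a median log2 fold change of 2.60. Among them Relb (log2 fold change 3.32, SE 0.42, adjusted p = 0.000190) and Nfkb2 (log2 fold change 2.60, SE 0.32, adjusted p = 0.000164) encode the transcription factor subunits of that pathway. This list does not hold the whole pathway. Chuk was counted in the canonical list, and Birc2 and Traf3 in that of TRAF adaptors and cIAPs. Of 19 canonical NF-kB genes 6 were higher and 6 lower, with a median of 0.04. Among genes with a mean of at least 5 CPM the largest increases were Nfkbia (log2 fold change 3.83, SE 0.34, adjusted p = 3.48e-05), the inhibitor that is itself an NF-kB target, and Rel (log2 fold change 3.36, SE 0.92, adjusted p = 0.0135), and the largest decreases Otulin (log2 fold change -3.69, SE 0.54, adjusted p = 0.000414), a deubiquitinase, and Chuk (log2 fold change -1.91, SE 0.47, adjusted p = 0.00761), a kinase of the IKK complex.

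Of 11 TRAF adaptors and cIAPs 5 were higher and 2 lower, where 23.3% and 21.4% of all genes tested were. Their median log2 fold change was 0.67. Traf1 (log2 fold change 3.04, SE 0.43, adjusted p = 0.000342) and Traf3ip2 (log2 fold change 2.17, SE 0.67, adjusted p = 0.0232) rose most of those at 5 CPM or more. The lower ones were Birc2 (log2 fold change -4.74, SE 0.71, adjusted p = 0.000471), which encodes cIAP1 and stood at 1607 ± 1388 CPM (SD, n = 5) in Sca-1-, and Traf3ip3 (log2 fold change -3.96, SE 0.44, adjusted p = 9.63e-05). Of 16 genes of death domain signalling 5 were higher and 4 lower, beside the same shares of all genes, with a median of 0.43. At that level the genes with the largest increases were Mlkl (log2 fold change 2.34, SE 0.41, adjusted p = 0.00114), the effector of necroptosis, and Casp8 (log2 fold change 2.07, SE 0.25, adjusted p = 0.000160), the initiator caspase of death receptors. Bid (log2 fold change -3.63, SE 0.40, adjusted p = 9.08e-05), a BH3-only protein that caspase-8 cleaves, was among the lower genes.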

How the data were processed

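The deposited table held whole-number read counts per gene, not normalized, for 9 libraries made by the authors with the SMART-Seq v4 Ultra Low Input kit from polyA RNA of sorted cells. The submitters' processing notes name STAR, featureCounts and the build mm10. Parameters and the use of strand are not given in the sources used here, so overlapping genes are uncertain. Without molecular identifiers, counts include PCR copies, and floors cover counting error only.

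The fractions were compared with edgeR 4.0.16 (R 4.3.3) after filterByExpr at its defaults (minimum count 10, minimum total 15) and TMM scaling. Two-sided p-values of its quasi-likelihood test were adjusted by Benjamini-Hochberg across the 15937 genes that passed, and called under 0.05. Levels are CPM on TMM-scaled library sizes. The pipeline was tested on simulated data. Alternatives were other scalings, filters, DESeq2 1.42.0, limma 3.58.1 voom, a replicate block, leaving out each library and, added after seeing the data, the mark in the titles as a term.

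Positions and exon lengths come from GENCODE M21 (GRCm38), where 45143 of the 46078 identifiers were found. All pairs of libraries within a fraction differed beyond sampling noise (chi-square per degree of freedom 40.0 to 585 over 16 pairs). Members given by library were those with an adjusted p under 0.05 and a mean of at least 5 CPM in the higher fraction, and their tested counterparts; of each pathway list the called genes with the 2 largest and 2 smallest fold changes at that level were named, except 1 that is not reported here. Members and lists were chosen with earlier results of these data known.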

Additional observations from a re-analysis of the deposited data

Results flagged for a closer look

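Of 54 sets of libraries examined (27 members in 2 fractions), 3 held a library that stood apart from the others by Dixon's criterion. Its chance rate of about 1 in 20 holds for normally spread values. Each of the 3 sets holds values at 0 counts, so that rate does not apply to them. For Tnfsf14, Sca-1+ library 19 had a log2 CPM of -0.98, while the other 3 were at -3.63, the value given by 0 counts. With those 3 tied, any count in library 19 would have been flagged. Library 19 was also the highest Sca-1+ library for the myeloid and neutrophil list, 1003 CPM against 210 to 249 CPM, and the part of such cells was not tested. Sca-1+ library 13 had 0 counts of Tnfrsf19, a log2 CPM of -3.63, where the other 3 ranged from 2.53 to 3.80. In the same library Tnfrsf11b was also at 0 counts, a log2 CPM of -3.63, where the other 3 ranged from 0.48 to 1.01. Library 13 had the lowest sum of the 14 stromal and osteoblast genes, 733 CPM against 1535 to 2760 CPM in the other Sca-1+ libraries.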

How the results depend on the processing

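The direction depended on the scaling, for the family as for all genes. With the general endothelial genes as the reference, the members called higher went from 14 to 0 and those called lower from 3 to 12, and the pathway genes from 19 to 0 and from 12 to 41, as 304 of all 15937 genes were then higher and 12845 lower; log2 fold changes turned to -1.73 (Tnfrsf11a), -2.02 (Tnfsf13os), -1.06 (Tnfsf12), -1.11 (Fas), -0.85 (Tnfrsf9), -0.11 (Ltbr), -0.14 (Tnfrsf22) and -1.28 (Eda2r). Library size alone moved all genes by a median of 0.35 and gave 0.27 for Tnfrsf19 and 0.34 for Cd27. The members called lower numbered 5 with DESeq2-style size factors, 5 with upper-quartile scaling and 8 with DESeq2. Over all genes those lower were then 3692 and 3554 of 15937 and 4574 of 26424. When 1 library was left out, 3 to 5 members were lower, reaching 5 without Sca-1+ library 19 and without Sca-1- library 10. In these fits 3109 of 16433 and 3348 of 15767 genes were lower. The cause was not tested. Members called higher numbered 13 to 16 when 1 library was left out, where 3098 to 3708 of all genes were higher. Without 1 library the log2 fold change of Tnfrsf19 ranged from -0.82 to 0.30 and that of Cd27 from -0.27 to 0.0904, and limma voom gave 0.00025 for Cd27. By limma voom Tnfrsf22, Tnfrsf10b, Tnfrsf26, Tnfrsf25 and Tnfrsf23 had larger log2 fold changes, 4.64, 5.003, 5.16, 5.33 and 5.59.

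Deviations correlated at 0.147, 0.148 and 0.0420 in the pairs of consecutive label numbers 7 and 8, 13 and 14, and 15 and 16. The 17 other pairs reached at most 0.0650. Pairs 7 and 8, and 13 and 14, thus lay above all others, while 15 and 16, which share a mouse number, did not. Whether the numbers mark pairs is uncertain, and the main fit had no block. With a replicate block on these 6 libraries 10 members were higher and 3 lower, against 11 and 5 in the same 6 without the block, 6 pathway genes were lower, and Cd27 gave 0.0144. The block did not call Eda2r (adjusted p = 0.434), Fas (0.0514), Tnfrsf13b (0.112), Tnfrsf22 (0.0925) and Tnfrsf25 (0.0772). The 6 libraries without the block did not call Eda2r and Tnfrsf22 either (adjusted p = 0.374 and 0.0613). They also did not call Tnfrsf23 (0.0518) and Tnfrsf11b (0.0503), which the block called (0.0321 and 0.0186). With the mark in the titles as a term in 8 libraries, chosen after seeing the data, 12 members were higher and 2 lower, and 14 pathway genes were higher and 7 lower. A library at 0 counts allows up to 0.0996 to 0.209 CPM.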
